A study of Mus musculus with 4 samples.

Results

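A list of 10 genes that mark blood monocytes or tissue macrophages in the mouse was followed across the cells of the submandibular salivary gland: Plac8, Ifitm6, Ly6c2, Ccr2, Lyz2, Ms4a7, Cx3cr1, Mrc1, Folr2 and Cd163. They are 10 of the 30406 genes whose identifiers stood in the feature lists of all 4 libraries, and they were taken by name, not by their level. Single-cell libraries had been made from the glands of female C57BL6/J mice, after removal of dead cells and of cells carrying EpCAM (epithelium) or Ter119 (red blood cells). In 1 library the main ducts had been closed with a metal clip for 14 days (ligated), and in 3 libraries the ducts had only been located in a mock operation 14 days before (mock 1, mock 2 and mock 3). The labels give no age and do not say how many animals a library holds, so p-values measure only the spread between these libraries, which may be technical. With 1 ligated library that spread came from the mock libraries alone, and an exact permutation test of 1 library against 3 cannot go below p = 0.25.

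Monocytes are made in the bone marrow and circulate in a classical form, which carries Ly6C and the chemokine receptor CCR2 and enters tissue towards CCL2, and a patrolling form, which carries little Ly6C and more of the fractalkine receptor CX3CR1. Macrophages stay in the tissue, take up dead cells and debris, and in many organs make much of the complement protein C1q. Resident macrophages differ between organs and niches. Some carry the uptake receptors MRC1 (CD206), FOLR2 and CD163, and others carry CX3CR1 and class II proteins of the major histocompatibility complex.

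The libraries held 29897488 to 80187555 UMIs (unique molecular identifiers, each standing for 1 captured RNA molecule) in 4798 to 13790 cell barcodes, and 11 to 61 barcodes were shared between any pair of libraries. Mock 2 and mock 3 stood closest together: their C1q macrophages differed with a chi-square per degree of freedom of 1.75, against 4.80 to 20.8 for the other pairs. In the headers of the matrices, Cell Ranger is at version 6.0.1 for 2 libraries, ligated and mock 1, and at 7.0.0 for the other two. By default these versions differ in whether intronic reads are counted, and the setting used is not stated in the sources used here. Cx3cr1 (163759 intronic bases) and Mrc1 (96295) have the longest introns of the 10 genes.

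Cells were clustered without the 10 genes. Levels are given as CPM, the UMIs of a gene per 1000000 UMIs of a cell or of a sum of cells. In the 2 macrophage-like clusters, cells with at least 1000 CPM of C1qa, C1qb and C1qc together were taken as C1q macrophages. C1q-low myeloid cells were the remaining cells of those clusters plus the cells under 1000 CPM in a dendritic-like cluster. There were 1110 C1q macrophages (502 ligated and 56, 245 and 307 in mock 1, 2 and 3) and 117 C1q-low cells (49 ligated and 20, 19 and 29 mock). The line fell in a thinly filled range, with 16 cells between 500 and 1000 CPM and 20 between 1000 and 2000. Of the C1q-low cells, 85 came from the dendritic-like cluster, whose leading genes were Cd74, H2-Aa, H2-Eb1, H2-Ab1, Lyz2, Epsti1, Napsa, Plbd1, Plac8 and Ccl5, so this class holds dendritic-like cells beside monocytes. A further 19 cells of that cluster, with C1q at or above the line, were left out. Only 14 of the 117 cells held UMIs of both Plac8 and Ifitm6. C1q macrophages made up 91.1% (exact binomial 95% interval 88.4 to 93.3) of the myeloid cells in the ligated library, 73.7% (62.3 to 83.1) in mock 1, 92.8% (89.0 to 95.6) in mock 2 and 91.4% (87.8 to 94.1) in mock 3. The ligated share lay inside the range of the mock shares, and mock 1 was the library that stood apart.

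The macrophage-like cells lay in a deep and a shallow cluster. The deep cluster held 374 of the 502 ligated C1q macrophages but 88 of 245 in mock 2 and 110 of 307 in mock 3, and mock 1 had 31 of 56 there. Median UMIs were 4615 to 7370 per cell and library in the deep cluster and 1148 to 1724 in the shallow one. The shallow cluster carried haemoglobin RNA, its erythroid marker score was above its macrophage score, and it was named from its leading genes (Cd74, C1qb, C1qa and others). Different clusters thus held most C1q macrophages in the ligated library and in mock 2 and mock 3. The summed level of the 5 erythroid markers in C1q macrophages was 2414 CPM in the ligated library and 4888 to 6158 in the mock libraries.

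The upstream sequences of 4 of the genes are shown because they stand for the patterns below: Ms4a7 and Cx3cr1 were high together in C1q macrophages, Ly6c2 was low there, and Mrc1 was scarce but detected. Each run holds the 250 bases before an annotated start, 5′ to 3′ on the strand of the gene, from RefSeq (build GRCm38.p6). The start lay 0, 0, 1 and 22 bases from the nearest GENCODE vM21 transcript start for Ms4a7, Cx3cr1, Ly6c2 and Mrc1. Capitals mark matches, on either strand, to GAGGAAG, a core of the kind bound by PU.1, the Ets factor of myeloid cells, or to TTGCNNAA, a pair of C/EBP half-sites. The 2 motifs do not overlap in any window shown.
Ms4a7: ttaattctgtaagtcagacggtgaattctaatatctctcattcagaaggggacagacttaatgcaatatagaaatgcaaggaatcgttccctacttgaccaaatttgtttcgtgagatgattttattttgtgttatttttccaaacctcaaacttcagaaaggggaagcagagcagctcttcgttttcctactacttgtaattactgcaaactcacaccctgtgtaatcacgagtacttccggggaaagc
Cx3cr1: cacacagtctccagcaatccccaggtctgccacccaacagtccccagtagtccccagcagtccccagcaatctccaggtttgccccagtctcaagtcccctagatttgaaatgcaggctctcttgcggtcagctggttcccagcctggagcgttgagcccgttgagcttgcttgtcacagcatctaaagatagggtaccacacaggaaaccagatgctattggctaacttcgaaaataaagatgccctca
Ly6c2: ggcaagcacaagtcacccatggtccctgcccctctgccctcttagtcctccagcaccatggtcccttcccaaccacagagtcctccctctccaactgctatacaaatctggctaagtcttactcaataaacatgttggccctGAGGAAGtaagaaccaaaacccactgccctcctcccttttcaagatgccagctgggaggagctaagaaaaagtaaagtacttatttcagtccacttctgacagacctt
Mrc1: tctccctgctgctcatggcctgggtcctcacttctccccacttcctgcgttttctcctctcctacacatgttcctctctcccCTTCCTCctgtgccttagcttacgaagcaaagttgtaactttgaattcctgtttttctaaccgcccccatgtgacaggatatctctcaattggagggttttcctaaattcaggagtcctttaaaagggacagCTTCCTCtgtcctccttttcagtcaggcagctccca
The Ms4a7 window is chr19:11336147-11336396 (minus strand), the Cx3cr1 window chr9:120068297-120068546 (minus), the Ly6c2 window chr15:75111972-75112221 (minus) and the Mrc1 window chr2:14229164-14229413 (plus). Mrc1 held 2 matches to GAGGAAG on the opposite strand, at bases -168 to -162 and -36 to -30 from the start, and Ly6c2 held 1 on its own strand at -108 to -102. Another annotated Ly6c2 start, whose window overlaps the one shown, had 2 matches on the gene's strand, at -142 to -136 and -8 to -2 from that start. The windows of Ms4a7 and Cx3cr1 held no match to either motif. Across all 32851 windows of this length, 10.6% held GAGGAAG and 9.56% held TTGCNNAA. All 10 genes had an entry, 14 in all; Ly6c2 and Mrc1 were the genes with GAGGAAG, and Plac8 was the gene with TTGCNNAA, in a window 5′ of one of its 2 starts. A match is a description of these letters only.

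Levels by cell class separated the 10 genes into 4 patterns. Ms4a7, Cx3cr1 and Lyz2 were carried by C1q macrophages, and Lyz2 by C1q-low cells as well. Ifitm6 was carried by C1q-low cells and by hardly any other cells. Plac8, Ly6c2 and Ccr2 were found in C1q-low cells and also outside the myeloid lineage. Mrc1 was scarce in C1q macrophages of every library, though above 3 counts, and Folr2 and Cd163 were at or near that floor. All levels below are CPM of the summed UMIs of a class in a library unless another scale is named. They compare a gene between cells, since CPM is not scaled for gene length.

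**Figure D1:**
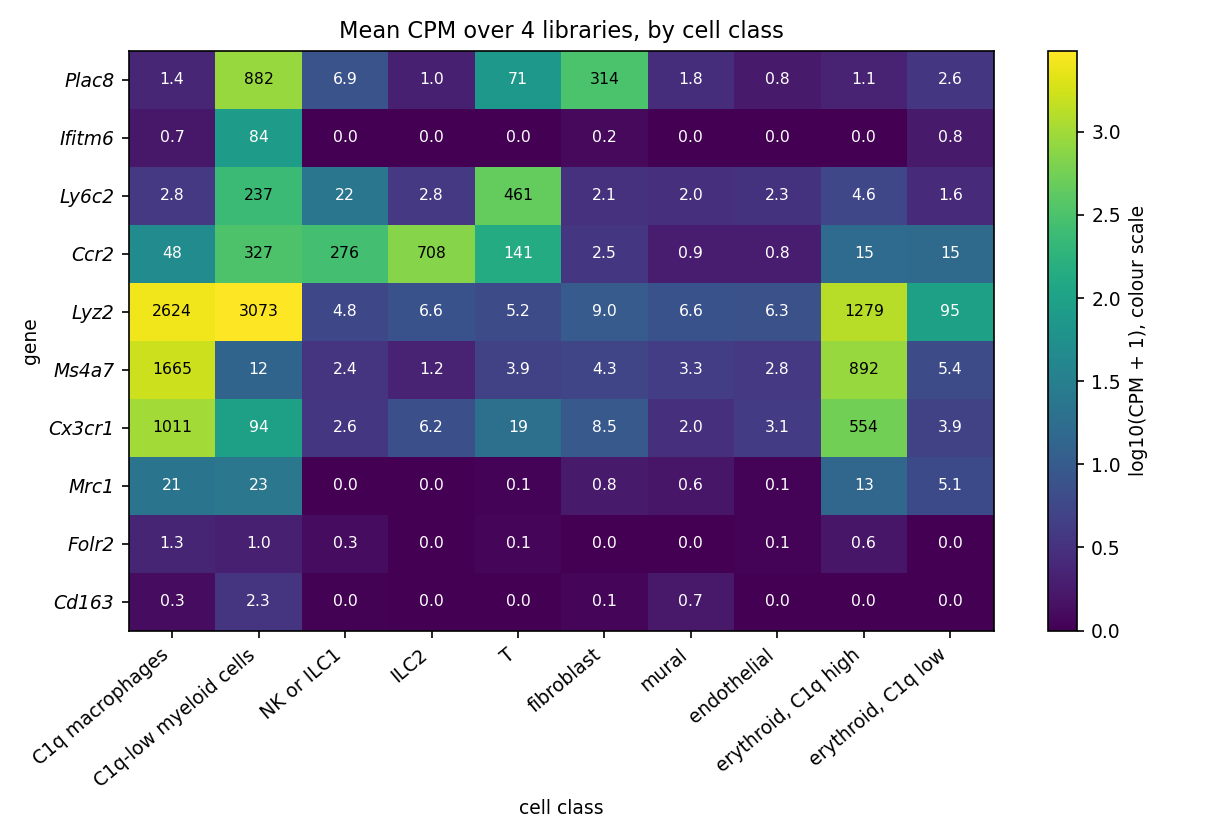
Mean level over the 4 libraries of each gene (rows) in each cell class (columns). Numbers are CPM and the colour scale is log10(CPM + 1); Ms4a7 and Cx3cr1 are highest in C1q macrophages, Ccr2 in ILC2-like cells and Ly6c2 in T-like cells.

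Ms4a7 (ENSMUSG00000024672, chr19:11321039-11336146, minus strand; positions of genes are from GENCODE vM21, build GRCm38), a membrane protein of the MS4A family found on macrophages, had the largest difference in favour of C1q macrophages among the 10 genes. Its level there was 2412 (ligated), 1835, 1229 and 1185 (mock 1, 2 and 3). In C1q-low cells it was 17.5, 4.67, 27.2 and 0 in the same order, with 8, 1, 3 and 0 UMIs. No library overlapped: the lowest C1q macrophage value was far above the highest C1q-low value. With the library as a term in the fit, Ms4a7 was higher in C1q macrophages by 7.40 ± 0.40 on the log2 scale (SE, edgeR quasi-likelihood F test, adjusted p = 1.25e-07, higher in 4 of 4 libraries). Ms4a7 did not pass the low count filter in C1q-low cells and entered the class comparison through C1q macrophages, so the call is no independent support. The size of the fold rests on C1q-low counts at or near 0 and depends on the prior count of the fit. That fit called 21.9% of the 6418 genes tested, 11.5% higher and 10.4% lower, so a call between these classes was common. Over all genes, the 4 C1q macrophage values lay above the 4 C1q-low values for 10.6% and below them for 7.45%. The C1q genes that part the classes were left out of its table.

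Cx3cr1 (ENSMUSG00000052336, chr9:119901616-120069879, minus strand), the fractalkine receptor, had the same direction with a smaller difference. Its level in C1q macrophages was 907 (ligated), 1256, 1009 and 871 (mock 1, 2 and 3), and in C1q-low cells 34.9, 126, 109 and 106. The classes did not overlap, and the ligated library had the lowest C1q-low value. The fitted difference was 3.69 ± 0.25 on the log2 scale (edgeR, adjusted p = 4.68e-07, higher in 4 of 4 libraries). C1q macrophages were also thinned to 2000 UMIs. Ms4a7 and Cx3cr1 were then found in the same cell in 308 of 420 ligated cells. In mock 1, 2 and 3 this was so in 34 of 38, 70 of 115 and 87 of 153 cells. In these thinned cells Ms4a7 was in 93.1% (ligated), 97.4, 75.7 and 79.7% (mock 1, 2 and 3), and Cx3cr1 in 78.3, 89.5, 75.7 and 67.3%. With shares this high, many cells hold both genes whether or not the genes go together by cell. Whether more cells held both than the separate shares give was not tested.

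Lyz2 (ENSMUSG00000069516, chr10:117277331-117282321, minus strand), which encodes lysozyme, a bacterial cell wall enzyme made by monocytes, macrophages and neutrophils, did not separate the classes. C1q macrophages had 2746 (ligated), 3070, 2561 and 2118 CPM (mock 1, 2 and 3), a narrow range. C1q-low cells ranged from 867 in mock 3 to 6595 in mock 2, with 1625 in the ligated library and 3206 in mock 1. The fitted difference was 0.30 ± 0.31 (edgeR, adjusted p = 0.561), and it turned to -0.06 with no doublet removal, to -0.08 without the library term and to -0.09 without mock 3. The spread among C1q-low cells came with few cells: the 14 cells with both Plac8 and Ifitm6 held 81.3% of the Lyz2 UMIs of that class. In mock 2, 5 such cells among 19 held 97.8% of them, and in mock 3, 2 among 29 held 16.5%.

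Mrc1, Folr2 and Cd163, the uptake receptors of one kind of resident macrophage, were scarce. The genes are Mrc1 (ENSMUSG00000026712, chr2:14229392-14332057, plus strand), Folr2 (ENSMUSG00000032725, chr7:101839988-101857194, minus strand) and Cd163 (ENSMUSG00000008845, chr6:124304656-124330527, plus strand). Mrc1 in C1q macrophages was 19.2 (ligated), 33.0, 22.8 and 10.2 CPM (mock 1, 2 and 3), from 77, 11, 23 and 11 UMIs. Thinned to 2000 UMIs per cell, 2.86% of ligated C1q macrophages (95% interval 1.48 to 4.94) and 5.26, 2.61 and 2.61% of mock 1, 2 and 3 held an Mrc1 UMI. In endothelial-like cells of the same libraries, read here as the level of free RNA, the thinned Mrc1 share was 0, 0.0407, 0 and 0.0359%. Folr2 gave 7 UMIs and Cd163 gave 2 UMIs over all 1110 C1q macrophages, at or under the floor of 3 counts in each library except for Folr2 in the ligated one, which had 5 UMIs among 4017245. In C1q-low cells Mrc1 was 4.36 (ligated), 18.7, 27.2 and 40.9 CPM, from 2 to 10 UMIs, and the classes differed by 0.16 ± 0.56 (edgeR, adjusted p = 0.900). The highest Mrc1 level of any class was in lymphatic endothelial-like cells, another known site of this receptor. It was 72.5 CPM in the ligated library and 131, 358 and 128 in the mock libraries, from 4, 11, 26 and 5 UMIs in only 4 to 11 cells per library.

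**Figure D2:**
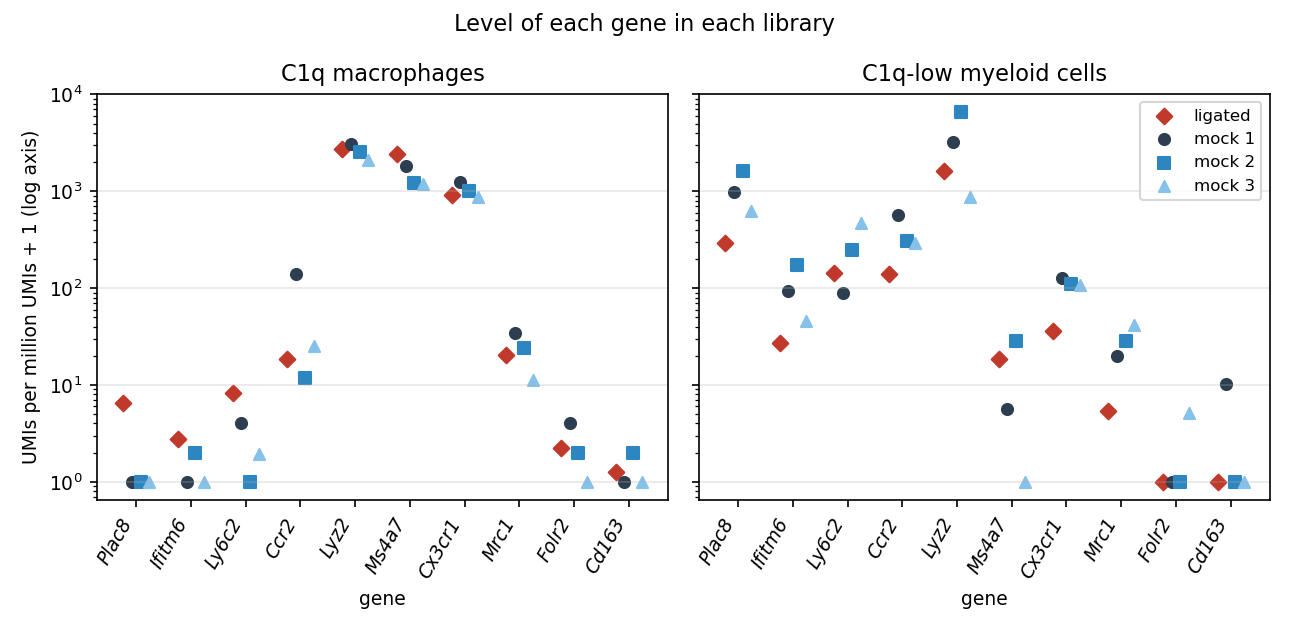
Level of each gene in each library for C1q macrophages (left) and C1q-low myeloid cells (right), as CPM + 1 on a log axis; each point is 1 library. Ms4a7 and Cx3cr1 are high on the left in all 4 libraries, Plac8 and Ifitm6 are high on the right, and Lyz2 is high in both.

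The monocyte genes Plac8, Ifitm6, Ly6c2 and Ccr2 were lower in C1q macrophages in every library. Plac8 (ENSMUSG00000029322, chr5:100553725-100572245, minus strand), which encodes a small cysteine-rich protein of myeloid and lymphoid cells, had 22 UMIs in ligated C1q macrophages (5.48 CPM) and 0 in each mock library, where 3 counts would have been 2.79 to 9.01 CPM. C1q-low cells held 292 (ligated), 977, 1633 and 626 CPM. Ifitm6 (ENSMUSG00000059108, chr7:141015699-141017924, minus strand), a myeloid member of the interferon-induced transmembrane family, was 1.74, 0, 0.993 and 0 CPM in C1q macrophages and 26.2, 93.5, 172 and 45.0 in C1q-low cells. Ly6c2 (ENSMUSG00000022584, chr15:75108158-75111970, minus strand), which encodes Ly6C of classical monocytes, was 7.22, 3.00, 0 and 0.929 CPM in C1q macrophages and 144, 88.8, 245 and 470 in C1q-low cells. Each of the 3 genes was called lower in C1q macrophages by edgeR, with adjusted p = 1.34e-06 for Plac8, 2.42e-05 for Ifitm6 and 4.35e-06 for Ly6c2. None of these genes passed the low count filter in C1q macrophages. They entered the class comparison through C1q-low cells, where they were high, so the calls add no support to the counts above. Their fitted folds rest on C1q macrophage counts at or near 0 and depend on the prior count of the fit. In the ligated library alone, where C1q macrophages had counts above the floor, Plac8 was 292 against 5.48 CPM and Ly6c2 144 against 7.22 CPM.

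Ccr2 (ENSMUSG00000049103, chr9:124101950-124113557, plus strand), the receptor that draws classical monocytes into tissue, was 17.4 (ligated), 138, 10.9 and 24.2 CPM in C1q macrophages and 140, 570, 308 and 290 in C1q-low cells. It was lower in C1q macrophages by 3.06 ± 0.31 on the log2 scale (edgeR, adjusted p = 1.26e-05, lower in 4 of 4 libraries). The ranges of the classes nearly met, since C1q macrophages of mock 1 were almost level with C1q-low cells of the ligated library, but within mock 1 the C1q-low value was again higher. At 2000 UMIs per cell, 4 of 38 C1q macrophages of mock 1 held Ccr2 (10.5%, 2.94 to 24.8), against 3.33% of the ligated and 0.870 and 2.61% of the mock 2 and mock 3 cells. All 4 of those mock 1 cells also held Lyz2, which was in 34 of all 38 thinned C1q macrophages of mock 1.

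Cells with both Plac8 and Ifitm6 carried a share of the monocyte signal that differed widely between libraries. Over all libraries they held 56.1% of the Plac8 and 62.9% of the Ifitm6 UMIs of C1q-low cells, which the choice of these cells favours, and 41.2% of Ccr2 and 29.96% of Ly6c2. In mock 2 they held 91.1% of Plac8, 78.9% of Ifitm6 and 55.6% of Ly6c2. In mock 3 they held 7.19% of Plac8, 27.3% of Ifitm6 and 0 of 115 Ly6c2 UMIs, and mock 3 had 115 of the 227 Ly6c2 UMIs of the class. The rule that removed the barcodes with the highest doublet scores took many of them: without it, C1q-low cells numbered 172 and those with both genes 31 (7 ligated and 6, 11 and 7 in mock 1, 2 and 3). With it there were 2, 5, 5 and 2. All 4 calls of lower monocyte genes in C1q macrophages and both calls of higher macrophage genes were also made without the rule.

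Outside the myeloid cells, Ccr2 was higher in ILC2-like cells, innate lymphocytes of the type 2 response, than in any myeloid class. ILC2-like cells held 589 CPM (ligated) and 938, 685 and 618 (mock 1, 2 and 3), NK- or ILC1-like cells held 186, 360, 284 and 275, and T-like cells 109, 168, 133 and 154. C1q-low cells, at 140 to 570, overlapped the NK- or ILC1-like and T-like ranges. The ligated library had the lowest Ccr2 level in each of these 3 lymphoid classes, which was not tested. Ly6c2, known also on CD8 T cells, was highest in T-like cells, at 651 (ligated), 529, 349 and 315 CPM, and overlapped the C1q-low range in the mock libraries. Its ligated T-like level was above the mock levels and was not tested.

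After C1q-low cells, the highest Plac8 level among classes with at least 30 cells in every library was in fibroblast-like cells, at 198 (ligated), 283, 367 and 410 CPM, with 47.2% of ligated and 67.1 to 74.1% of mock fibroblast-like cells holding a UMI. These shares were not thinned to equal depth. Of the ligated fibroblast-like cells, 195 lay in a cluster with a median of 723.5 UMIs, which held 1 cell of mock 1 and 0 of mock 2 and mock 3. The part of depth in these shares was not tested. T-like cells held 65.8 to 83.7 CPM of Plac8. B-like cells (from 8 cells in a library) had 450 CPM ligated and a mock mean of 362 ± 387 (SD, n = 3), overlapping the fibroblast-like range. Ifitm6 did not exceed 3.12 CPM in any class other than C1q-low cells.

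Erythroid-like cells carried Ms4a7, Cx3cr1 and Lyz2 where they also carried C1q. Of 446 such cells, 119 had C1q at or above 1000 CPM. Over the 4 libraries, erythroid-like cells at or above that line had 892 ± 218 CPM of Ms4a7 (SD, n = 4), 554 ± 121 of Cx3cr1 and 1279 ± 484 of Lyz2. Those below it had 5.41 ± 6.80, 3.95 ± 4.59 and 94.9 ± 146. The 119 cells were not counted among the C1q macrophages.

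The genes most alike to each of the 10 across 40 sums of 11 classes and libraries were named by Pearson's r of log2(CPM + 10), as a description: the points share libraries and depth. Ms4a7 was most like C1qc (0.992) and Csf1r (0.991), the receptor for the macrophage growth factor CSF1. Cx3cr1 was most like Csf1r (0.971) and C3ar1 (0.967), and Lyz2 most like the class II gene H2-Aa (0.986) and Aif1 (0.985). Ly6c2 was most like the T cell genes Cd3e (0.966) and Cd8b1 (0.962), and Ccr2 most like Ptpn7 (0.964) and Coro2a (0.963). Plac8 was most like Dpp4 (0.829) and Ifi205 (0.818), and Mrc1 most like Cyp4f18 (0.911) and Themis2 (0.907). Only the ligated library had 30 C1q-low cells, so the likeness of Ifitm6 to H2-M2 and Chil3 turns on 1 sum, and Folr2 and Cd163 were too low to be compared.

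Other genes of the same programmes gave a background for the split. All 15 core macrophage genes were called higher in C1q macrophages, with a median log2 difference of 3.46 against 0.0018 over all genes tested, among them Trem2 (6.38 ± 0.41, edgeR adjusted p = 3.78e-07), Apoe (5.87 ± 0.28, 8.96e-08) and C3ar1 (5.47 ± 0.45, 2.17e-06). Of 22 resident macrophage genes, 10 were tested, 6 were higher and 1 lower, among them the platelet factor gene Pf4 (6.79 ± 0.54) and the scavenger receptor gene Stab1 (4.11 ± 0.37). Of 18 classical monocyte genes, 15 were tested, and 9 were lower and 2 higher, led by S100a4 (-5.47 ± 0.79), Fn1 (-5.28 ± 0.57) and Chil3 (-5.14 ± 0.58). Of 12 patrolling monocyte genes, 9 were tested, and 5 were lower and 2 higher, led by Eno3 (-4.47 ± 0.35), Nr4a1 (-3.63 ± 0.41) and Klf2 (-2.12 ± 0.44). Cx3cr1, known in blood from patrolling monocytes, had the direction of the macrophage lists. The folds of Trem2, C3ar1, Pf4, Fn1 and Chil3 rest on very low counts in the class where each was lower. These folds depend on the prior count of the fit.

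The ligands showed another division. Ccl12, a ligand of CCR2, was 209 CPM ligated and 271 ± 95.6 mock (SD, n = 3) in C1q macrophages. C1q-low cells held 2 Ccl12 UMIs over all libraries. The fitted log2 difference between the classes was 6.90 ± 0.43 (edgeR, adjusted p = 2.96e-07). Ccl12 did not pass the low count filter in C1q-low cells and entered the class comparison through C1q macrophages. The call is thus no independent support, and the size of the fold depends on the prior count of the fit. Ccl2, the main CCR2 ligand, was 89.6 CPM ligated and 32.6 ± 8.29 mock in C1q macrophages and 74.0 ligated and 45.3 ± 5.94 mock in fibroblast-like cells. Cx3cl1, the ligand of CX3CR1, was 100.2 CPM ligated and 69.8 ± 19.9 mock in fibroblast-like cells and 81.7 and 72.5 ± 25.2 in endothelial-like cells, and it was 2.74 and 3.90 ± 2.02 in C1q macrophages.

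Ligation was compared with mock surgery within each class. Over all macrophage-like cells, with no line on C1q, the fit called 0.0753% of 9291 genes, all 7 of them higher, and none of the 8 listed genes tested (edgeR, 0 called; 1, Ms4a7, at an unadjusted p under 0.05; DESeq2 0). In C1q macrophages 5 of the 10 genes passed the filter on low counts (Ms4a7, Cx3cr1, Lyz2, Mrc1 and Ccr2), and edgeR called none (0, with 1 at an unadjusted p under 0.05), nor did DESeq2. The fit called 0.0885% of the 9036 genes tested, 8 higher and 0 lower, with 1101 at an unadjusted p under 0.05. Ms4a7 was the only one of the 5 above all mock libraries and had a log2 difference of 0.73 ± 0.24 (edgeR, unadjusted p = 0.0164, adjusted p = 0.297). Over all genes, 26.2% lay above and 22.8% below every mock library on the TMM-scaled CPM of the fit. Without mock 1 the Ms4a7 difference was 0.93, and without the low count filter 0.81, both called. Both of these fits called many more genes than the main fit, so these calls add no support. With a term for the software version the Ms4a7 difference was 0.39, not called and the lowest of its alternatives. The fits without mock 1 and with the version term had 1 residual degree of freedom.

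At equal depth Ms4a7 did not set the ligated library apart from mock 1. In cells thinned to 2000 UMIs, 93.1% (90.2 to 95.3) of ligated C1q macrophages, 97.4% (86.2 to 99.9) of mock 1, 75.7% (66.8 to 83.2) of mock 2 and 79.7% (72.5 to 85.8) of mock 3 held a Ms4a7 UMI. Without thinning the shares were 94.2, 91.1, 72.2 and 71.0%. The libraries thus fell into the ligated library and mock 1, whose files name Cell Ranger 6.0.1, and mock 2 and mock 3, whose files name 7.0.0. The version could be compared with ligation within 6.0.1 only as 1 library against 1, 2412 against 1835 CPM. Thinning left out 82, 18, 130 and 154 cells. The share of endothelial-like cells with a Ms4a7 UMI was 2.33% in the ligated library and 0.0179 to 0.0878% in the mock libraries, at median depths of 4378 and 3461 to 5352 UMIs, so the level in a class that should lack Ms4a7 was also higher in the ligated library.

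**Figure D3:**
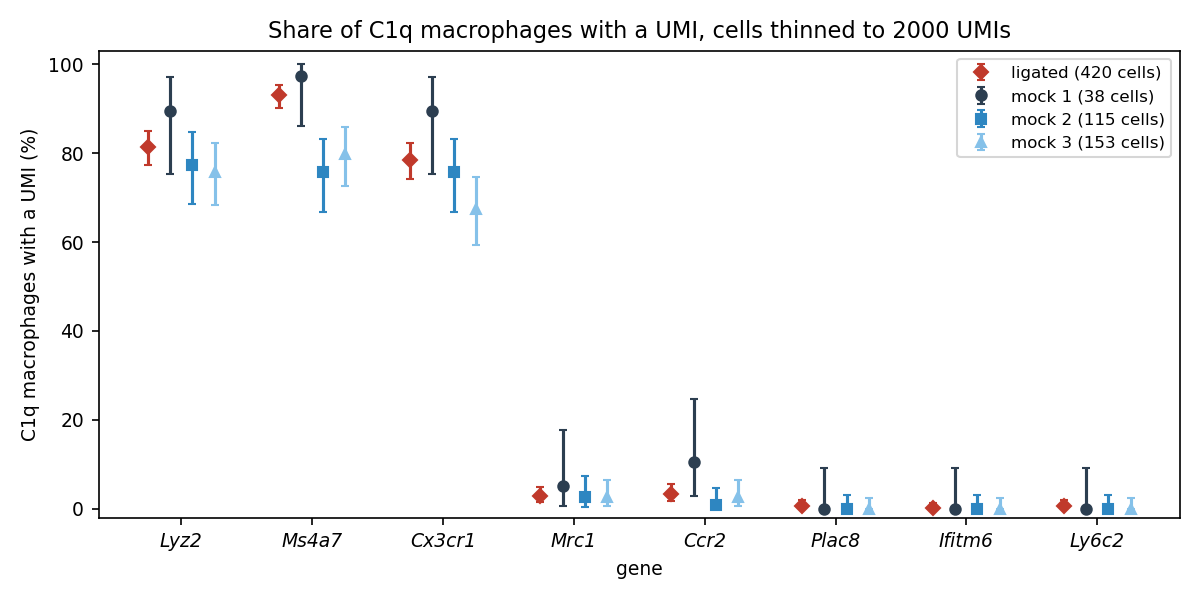
Share of C1q macrophages with at least 1 UMI of each gene after each cell was thinned to 2000 UMIs (points, with exact binomial 95% intervals, counting error only). Ms4a7 is in 93.1% of ligated and 97.4% of mock 1 cells and in 75.7 and 79.7% of mock 2 and mock 3 cells; Mrc1, Ccr2, Plac8, Ifitm6 and Ly6c2 are rare in all libraries.

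Cx3cr1, Lyz2 and Mrc1 in C1q macrophages lay inside or close to the mock ranges. Cx3cr1 differed by -0.24 ± 0.24 (edgeR, adjusted p = 0.734), Lyz2 by 0.05 ± 0.20 (0.946) and Mrc1 by -0.08 ± 0.51 (0.966). In thinned cells Cx3cr1 was in 78.3% (74.1 to 82.2) of the ligated and 89.5, 75.7 and 67.3% of the mock cells, and Lyz2 in 81.4% (77.4 to 85.03) and 89.5, 77.4 and 75.8%. Ccr2 differed by -1.45 ± 1.09 (edgeR, adjusted p = 0.641), and mock 1 decided this value. Without mock 1 the difference was -0.09, not called. It was -2.14 without mock 2 and -2.98 with a term for the software version, both called. Each of those fits had 1 residual degree of freedom, so a call or the lack of it is no support.

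In C1q-low cells all 6 genes that passed the filter (Plac8, Ifitm6, Ly6c2, Ccr2, Lyz2 and Cx3cr1) were lower in the ligated library than the mock mean, and edgeR called none (0, with 3 at an unadjusted p under 0.05), nor did DESeq2. The fit called 1% of the 4991 genes tested. Plac8 was 292 CPM against 977, 1633 and 626 and differed by -1.61 ± 0.53 (edgeR, adjusted p = 0.229). Cx3cr1 was 34.9 against 106 to 126 and differed by -1.46 ± 0.53 (0.278), Ccr2 was 140 against 290 to 570 and differed by -1.24 ± 0.52 (0.361), and Ifitm6 was 26.2 against 45.0 to 172 and differed by -1.63 ± 0.75 (0.412). Ligated Plac8, Cx3cr1, Ccr2 and Ifitm6 levels lay below every mock library, where 26.3% of all genes lay below and 27.7% above every mock library on the scale of the fit. Lyz2 (-0.85 ± 0.76, adjusted p = 0.735) and Ly6c2 (-0.68 ± 0.74, 0.799) lay between mock libraries. Plac8 was called without mock 1 (-1.67) and without mock 3 (-1.90), and Lyz2 likewise (-0.91 and -1.34). Ly6c2 was called without mock 1 (-1.13), and Plac8 also without the low count filter (-1.52). The fits that left out a mock library had 1 residual degree of freedom and called more genes than the main fit. Calls from those fits add no support. Other settings brought the differences closer to 0, with no call. Without mock 2, Lyz2 was -0.09 and Plac8 -1.23, and without the shallow macrophage cluster Lyz2 was -0.11 and Plac8 -1.10. Ly6c2 turned to 0.10 without mock 3, to 1.14 without the shallow cluster and to 0.94 with the version term. With no doublet removal, which more than doubled the cells holding both Plac8 and Ifitm6, Ifitm6 was -0.54, Ly6c2 -0.06, Cx3cr1 -0.85, Lyz2 -0.74, Ccr2 -1.05 and Plac8 -1.44.

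Markers of other cell types also differed between the ligated and mock C1q-low sums, which was not tested. Over all genes in the fit of this class, 27.7% lay above and 26.3% below every mock library. The class rests on 49 ligated and 19 to 29 mock cells, of which 2 ligated and 5, 5 and 2 mock cells held both Plac8 and Ifitm6, so fewer monocytes and less RNA per monocyte cannot be told apart in these sums. In the same sums the 6 NK or ILC1 markers were 1084 CPM ligated and 27.2 to 462 mock (5 of 6 above all mock libraries), the 7 T markers 229 and 9.35 to 54.4 (6 of 7), and the 7 endothelial markers 170 and 1333 to 1584 (6 of 7 below). The 7 fibroblast markers were 124 CPM ligated and 4.09 to 9.35 mock (6 of 7 above, Dpt at 0), and the 7 mural markers 111 and 4.09 to 14.0 (7 of 7 above). The 8 dendritic markers were 901 CPM ligated and 575 to 871 mock (1 of 8 above and 3 below), and the 5 erythroid markers 465 and 140 to 26280, the highest in mock 3. The 6 neutrophil markers were 6.55 CPM ligated and 224 to 1878 mock (2 of 6 below, Mmp9 at 0), and the 18 monocyte markers 672 and 544 to 2346, with the ligated sum inside the mock range (7 of 18 below). The part of these differences in the results was not tested.

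No gene of the 6 other lists (classical and patrolling monocyte, resident and core macrophage, ligand and stress genes) was called by ligation in C1q macrophages, 0 of 61 tested. By edgeR 13 of the 61 had an unadjusted p under 0.05, beside 1101 of the 9036 genes over all, and DESeq2 called 0. The 13 dissociation and stress genes all had positive differences, with a median of 0.57 against -0.0011 over all genes. Of them, 7 lay above every mock library, as did 26.2% of all genes tested. The 11 classical monocyte genes tested had a median of 0.48, led by S100a6 (2.36 ± 0.56, edgeR adjusted p = 0.222), and the 6 patrolling genes 0.75, led by Spn (1.35 ± 0.57, 0.407) and Klf2 (1.30 ± 0.34, 0.247). In the same sums the T markers were 78.7 CPM ligated and 2.98 to 7.43 mock (6 of 7 above), the NK or ILC1 markers 127 and 3.00 to 3.97 (6 of 6) and the fibroblast markers 152 and 7.94 to 27.0 (6 of 7). Their part in the values was not tested. In C1q-low cells the 14 classical monocyte genes tested all had negative differences, with a median of -1.30 against -0.07 over all genes. Among them were Hp (-3.58 ± 1.34, edgeR adjusted p = 0.292) and Cebpb (-1.68 ± 0.58, 0.244). Of these 14 genes, 8 lay below every mock library, as did 26.3% of all genes tested. The other lists tested there also had negative medians. These were -1.54 for patrolling monocyte genes (2 of 11 positive) and -0.88 for resident macrophage genes (1 of 6 positive). Core macrophage genes had -0.44 (3 of 12 positive) and stress genes -0.43 (5 of 12 positive). Cd63, a lysosomal and endosomal membrane gene, was the listed gene called there, at 728 CPM ligated and 86.9 ± 29.5 mock (SD, n = 3; 3.10 ± 0.43, edgeR adjusted p = 0.0195). The fibroblast and mural marker sums given above were also higher in that ligated sum, and their part in the Cd63 value was not tested.

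**Figure D4:**
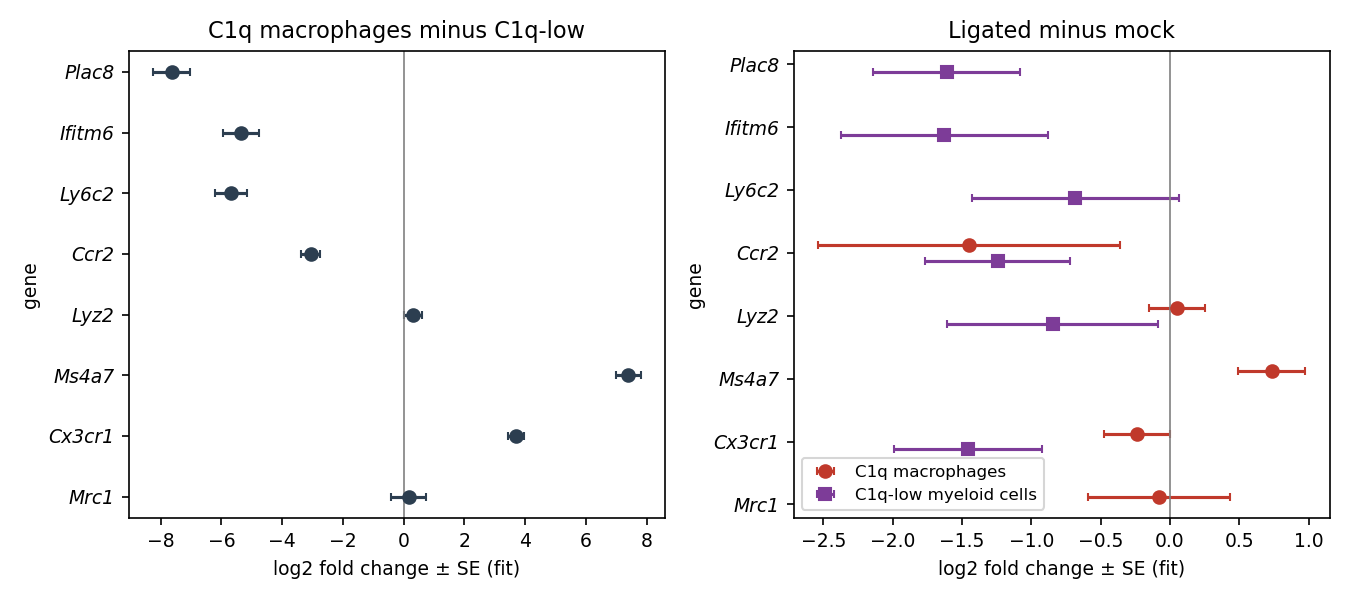
Fitted log2 differences with their standard errors for genes that passed the low count filter: C1q macrophages minus C1q-low cells with library as a term (left) and ligated minus mock within each class (right). Zero is the grey line. Ms4a7 lies at 7.40 on the left and 0.73 on the right, and all 6 C1q-low values on the right are negative. On the left, Ms4a7, Plac8, Ifitm6 and Ly6c2 rest on very low counts in the class where each was lower, and depend on the prior count.

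A term for ligation by C1q class tested whether the ligated minus mock difference differed between the classes. It called 0.75% of 7596 genes, 0.224% with a higher and 0.527% with a lower term, and of the 8 listed genes tested its adjusted p was 0.00189 for Plac8 and 0.0549 for Ly6c2 (edgeR). The Plac8 value does not show a difference between the classes. Plac8 did not pass the low count filter in C1q macrophages and entered this fit through C1q-low cells, and the term sets 22 UMIs in 7 of 502 ligated C1q macrophages against 0 in every mock library. Plac8 in endothelial-like cells was 2.15 CPM ligated and 0.334 ± 0.124 mock (SD, n = 3), so its level in a class that should lack it was higher in the ligated library too. Fibroblast-like cells carried Plac8, and the fibroblast markers in C1q macrophages were 152 CPM ligated and 7.94 to 27.0 mock. The part of either in the term was not tested.

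Near copies bear on 2 of the genes. Of the 50-base stretches of Ly6c2 transcripts, 13.9% were shared with Ly6c1, and 15.4% of those of Lyz2 with Lyz1. Ifitm6 shared 0% with Ifitm3, and Mrc1 0% with Mrc2. Ly6c1, an endothelial gene, was 3281 CPM ligated and 3699 ± 188 mock in endothelial-like cells, where Ly6c2 was 5.30 and 1.27 ± 0.859. Ly6c1 in C1q-low cells was 54.5 CPM (ligated), 701, 544 and 401 (mock 1, 2 and 3), and it was called lower by ligation there (-3.07 ± 0.54, edgeR adjusted p = 0.0366), in the class where endothelial markers were lower too. Lyz1 was at most 0.993 CPM in C1q macrophages, and Mrc2 likewise.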

How the data were processed

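The deposited values are counts, raw UMI counts per gene and barcode in 1 sparse matrix per library, after the authors' calling of cell barcodes not normalized. Cell Ranger 7.0.1 and mm10 are named per the submitters' processing notes; per the file headers the versions were 6.0.1 and 7.0.0, a difference that was not resolved. The 10 genes, the gene lists and the tests were chosen with earlier results of these data known, so a pattern already seen is not independent support.

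Cells with at least 500 UMIs, 300 genes and at most 15% mitochondrial UMIs were kept. The barcodes with the highest Scrublet scores, 0.8% per 1000 barcodes, were removed, which left 11888 ligated and 4421, 8566 and 11409 mock cells (Scrublet itself called 732, 76, 171 and 1). Clusters came from 2000 variable genes without the 10 genes, 30 principal components, 15 neighbours and the Leiden method at resolution 1.0 (scanpy 1.11.5, leidenalg 0.10.2), with no batch integration. Names came from fixed markers, none of them among the 10 genes, with rules on leading genes added after the clusters were seen. As planned, C1q-low cells held no dendritic-like cells, but then no library had the 15 cells a fit needed, so dendritic-like cells were counted with them after the cell numbers were seen. Because the classes were parted by expression, p-values between C1q classes describe cells chosen from the same RNA.

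UMIs were summed per class and library and compared with edgeR 4.0.16 (quasi-likelihood F test, TMM), with filterByExpr and Benjamini-Hochberg adjustment at 0.05 over all genes tested. DESeq2 1.42.0 was an alternative. Differences between C1q classes and the ligation by class term had a term for each library. The script was tested on simulated data. Shares of cells have exact (Clopper-Pearson) 95% intervals, which, like the floor of 3 counts, cover counting error only. Named genes beyond the 10 were the 3 genes of each list with the largest log2 difference and a mean of at least 50 CPM, the 2 genes most like each of the 10, and near copies; some of these are not reported here. The promoter windows are RefSeq's, on GRCm38.p6.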

Additional observations from a re-analysis of the deposited data

Results flagged for a closer look

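The term for ligation by C1q class had an adjusted p of 0.00189 for Plac8 (edgeR quasi-likelihood F test; DESeq2 0.00163), which is what singled it out. It does not show that the ligated minus mock difference depends on the class. Plac8 had 22 UMIs in 7 of 502 ligated C1q macrophages and 0 in those of each mock library, did not pass the low count filter in C1q macrophages, and entered the fit through C1q-low cells, where it was 292 CPM ligated and 977, 1633 and 626 mock. In endothelial-like cells, a class that should lack it, Plac8 was also higher in the ligated library, at 2.15 CPM against 0.334 ± 0.124 mock (SD, n = 3). The adjusted p stayed under 0.05 in the 12 alternatives run.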

How the results depend on the processing

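Numbers of genes called by ligation depended on the settings, and so did some values of the 10 genes. Against 7 genes in all macrophage-like cells, 8 in C1q macrophages and 50 in C1q-low cells, no doublet removal and Scrublet's own calls (the latter added after seeing the data) gave 0, 0 and 0 each by edgeR, with 978, 1039 and 742 and then 910, 895 and 756 genes at an unadjusted p under 0.05. A term for the software version gave 288, 71 and 0 (526 unadjusted), and no low count filter gave 450, 585 and 317. DESeq2 gave 63 and 54 in the first pair. Without each mock library in turn the counts were 27 to 2327, 140 to 1989 and 209 to 497, the highest each time without mock 1. In all macrophage-like cells, counting dendritic-like cells gave 2 and leaving out the shallow macrophage cluster, added after seeing the data, gave 3. In C1q-low cells the latter gave 18, and C1q lines at 500 and 2000 CPM gave 13 and 121. For the ligation by class term, with 57 genes, the line at 2000 gave 99, DESeq2 19, no doublet removal 35, Scrublet's calls 25, no low count filter 111, and leaving out a mock library 112 to 209. The cause was not tested.

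Between C1q classes, 1407 genes were called with the library as a term, which pairs the sums of a library, and 636 with no replicate block; leaving out a mock library gave 1005 to 1197. No paired analysis was possible between ligated and mock because the groups share only replicate number 1. All 6 calls among the 10 genes between C1q classes held under every alternative in which the gene was tested. Ms4a7, Plac8, Ifitm6 and Ly6c2 entered the main fit through the class where they were high, so their calls are no independent support. The uncalled Lyz2 difference turned to -0.062 without doublet removal, -0.049 with Scrublet's calls and -0.077 with no replicate block. Leaving out a mock library moved Lyz2 from -0.090 (without mock 3) to 0.74 and Mrc1 from -0.10 (without mock 1) to 1.06. By ligation in C1q macrophages, Lyz2 turned to -0.16 with the version term, and leaving out a mock library gave Lyz2 -0.090 (without mock 3) to 0.16 and Mrc1 -0.55 to 0.16 (without mock 1). In C1q-low cells, Ly6c2 turned to 0.94 with the version term and 1.14 without the shallow cluster, and leaving out a mock library gave -1.13 to 0.096 (without mock 3). The C1q macrophage shares stayed within their intervals at 500 and 2000 CPM, and of the shares of C1q macrophages with a UMI, 55 stayed within and 25 moved outside the interval when cells were thinned to 1000 UMIs or not thinned. The 49 ligated and 19 to 29 mock C1q-low cells limit every value of that class, and C1q-low cells without dendritic-like cells could not be fitted.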
